A study of Homo sapiens with 4 samples.

Results

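The lncRNAs described here carry names of the form lnc-SLC-number, which place them beside a gene of the solute carrier (SLC) family. They were chosen by name and by level: isoform values were summed per lncRNA gene, and a gene was a member if its name started with lnc-SLC followed by a digit and its mean over the 4 libraries was at least 0.5 FPKM. This gave 123 members with 549 isoform rows, out of 780 lncRNA genes with such names and 46902 lncRNA genes in the table. Of the genes with a carrier name 15.8% reached the minimum, against 12.6% of the other genes with lnc- names. The remaining 657 stayed below it, and 277 of the 780 were listed at 0 in all 4 libraries. Just inside the minimum lay lnc-SLC20A2-1, with a mean of 0.515 FPKM, and lnc-SLC25A6-4, with 0.529 FPKM. Just outside lay lnc-SLC25A37-1, with 0.495 FPKM, and lnc-SLC2A4RG-2, with 0.485 FPKM. The level was therefore fixed by the choice, while the rule itself held no comparison of the cell lines. It was set with earlier results of these data known. A member near the minimum can still have passed because it was high in 1 line only.

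FPKM scales the sequenced fragments of a transcript to its length and to the number of mapped fragments. The libraries came from MDA-MB-231, a human cell line from a triple-negative breast cancer, and from MDA-MB-231-P3, a highly metastatic subline. To make the subline, MDA-MB-231 cells were given to mice by the tail vein, the cells of the resulting lung tumours were grown in culture, and the cycle was run for 3 rounds. RNA came from trypsinized adherent cultures of each line, in 2 libraries per line. Nothing in the labels tells if the libraries are separate cultures or if the subline is 1 clone, so the p-values measure the spread between libraries, which may be technical. Against 2 libraries, 2 others cannot give an exact two-sided permutation p below 0.333, so single lncRNAs were tested with limma across the whole table.

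Solute carriers are membrane proteins that move amino acids, sugars, ions, metals, nucleotides and other small molecules across the plasma membrane and the membranes of organelles. In tumour cells several of them supply glucose, glutamine, cystine and iron for growth. A lncRNA named after a carrier lies near that gene in the annotation, and the name says nothing of what the lncRNA does. The carriers' own mRNAs were not analysed here. The 123 members carried 90 neighbour names. All 90 were found in the human annotation on hg19 (GENCODE release 44 lifted to GRCh37), 1 of them, SLC9A3R2, under its current symbol NHERF2. They lay on 23 chromosomes, with 15 members on chromosome 17. The name SLC9A3R2 belongs to a scaffold protein and SLC7A6OS to a gene on the opposite strand of a carrier, so the 2 members named after them lie beside genes that are not carriers.

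The FPKM of all isoforms summed to between 351135 and 500086 per library, lower in both subline libraries, and the 10 most abundant isoforms held 67.7% to 72.7% of it. Read depth was unknown, because FPKM keep no counts. The 7 protein-coding markers looked up for a breast cancer line had no row in this lncRNA table. Of lncRNAs that mark other cells, HAND2-AS1, CARMN and FENDRR (stroma) stayed at or below 0.0899 FPKM in every library. LINC00926 (B lymphocytes) had 0.324 and 1.07 FPKM in the parent against 1.05 and 0.859 FPKM in the subline, and LINC00861 and LINC01871 (lymphocytes) were near 0 in all 4. In bulk RNA, expression in fewer cells and less RNA per cell cannot be told apart. Near 0 means below 0.01 FPKM throughout.

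Most members were scarce. Their mean levels had a median of 1.63 FPKM, against 1.43 FPKM over all 6444 lncRNA genes that reached the minimum. The range ran from 0.515 to 651 FPKM, 41 members lay under 1 FPKM, and 9 reached 10 FPKM. The 2 members over 100 FPKM were lnc-SLC5A10-3 and lnc-SLC2A9-3, which were also the 2 among the 100 most abundant of the 6444. The members' FPKM summed to 2523 and 1175 in libraries 1 and 2 of the parent, but to 732 in each subline library. Without lnc-SLC5A10-3 and lnc-SLC2A9-3 the sums were 356 and 333 FPKM in the parent and 449 and 426 FPKM in the subline. The order of the lines in the summed level thus turned around when these 2 lncRNAs were left out. The remaining sums also leaned on single lncRNAs. Mean FPKM in parent and subline was 16.2 and 73.5 for lnc-SLC39A6-4 and 1.76 and 31.2 for lnc-SLC35E3-8. By the log2 difference given below, 63 members were positive and 60 negative.

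No member passed the test between the lines. With limma on log2(FPKM + 0.5), 0 of 123 members had an adjusted p under 0.05, and over all genes tested 4 of 6444 did (0.0621%). Of those 4, 2 were higher (0.031%) and 2 lower (0.031%) in the subline. An unadjusted p under 0.05 was reached by 17 members (13.8%), against 15.2% of all genes tested. Of the 17, 11 were higher in the subline (all tested: 9.5%) and 6 lower (all tested: 5.68%). The smallest adjusted p of a member was 0.213, for lnc-SLC4A3-5. Both subline libraries lay above both parental libraries for 33 members (26.8%), against 28.9% of all genes tested. They lay below them for 24 members (19.5%), against 21.4%. Together 57 members (46.3%) did not overlap between the lines, against 50.3%. A difference of at least 1 on the log2 scale was seen in 24 members (19.5%, against 21%). These shares were close to the background in both directions. With a minimum of 1 FPKM, 35 of 82 members (42.7%) did not overlap, against 51.7% of all genes tested. Of these, 22 were higher (all tested: 28.7%) and 13 lower (all tested: 23%). After the libraries were rescaled to the same total FPKM without the 10 most abundant isoforms, the split became 41 higher (all tested: 35.1%) and 16 lower (all tested: 14.6%).

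The median log2 difference of the members, subline minus parent, was 0.03, with 63 positive (51.2%) and 60 negative, against 0.09 and 54.7% positive over all genes tested. Differences are on the log2(FPKM + 0.5) scale, on which low lncRNAs appear to change less than they do. Rescaling to the same total FPKM moved the median of all these genes to 0.385, or to 0.268 when the 10 most abundant isoforms were left out. The members' median, over the 122 that then reached the minimum, moved to 0.331 and 0.225 and was below that of all genes on both scales. The spread within a line was of similar size to most differences: the median absolute log2 difference between libraries was 0.55 in the parent and 0.36 in the subline. Over all genes tested it was 0.45 and 0.38. For 42 of the 123 members (34.1%) the difference between the lines exceeded the difference between libraries in both lines, against 36.7% of all genes tested.

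**Figure D1:**
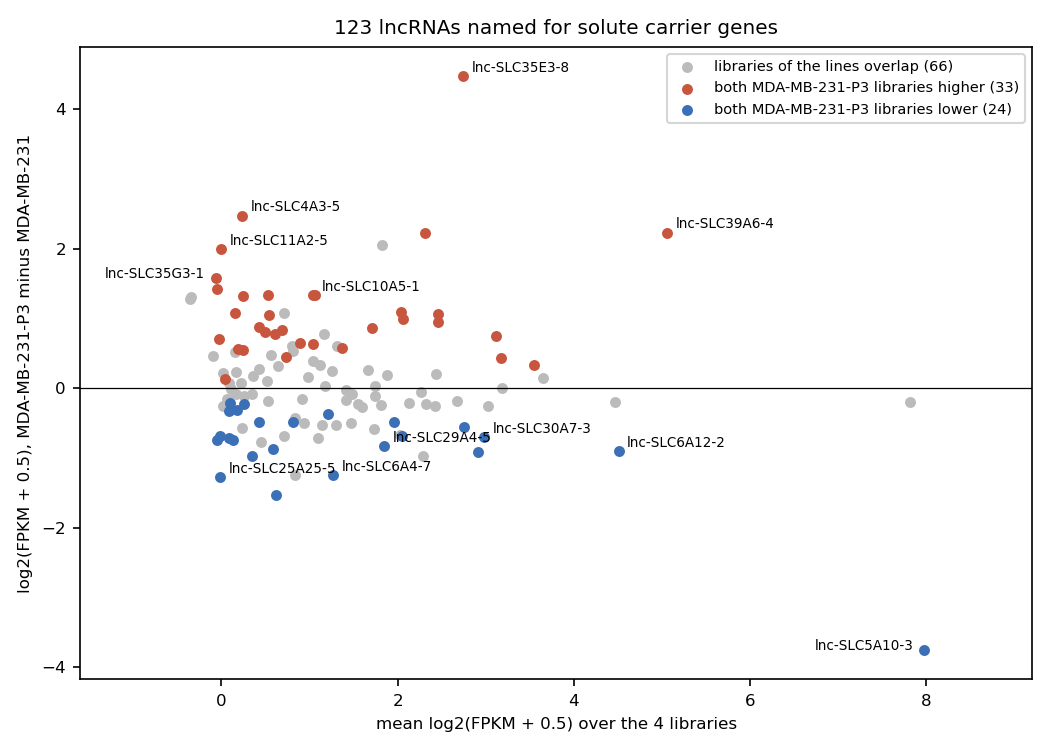
Difference between the lines (log2(FPKM + 0.5), MDA-MB-231-P3 minus MDA-MB-231) against the mean log2(FPKM + 0.5) over 4 libraries, 1 point per member (123). Red and blue points are the 33 and 24 members whose subline libraries both lay above or both below the parental libraries, grey points overlapped; lnc-SLC35E3-8 lies highest at 4.48 and lnc-SLC5A10-3 lowest at -3.76.

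Among members higher in both subline libraries, the smallest p belonged to lncRNAs that were listed at 0 in the parent. The lncRNA lnc-SLC4A3-5 was listed at 0 in both parental libraries and at 2.22 and 2.35 FPKM in subline libraries 1 and 2. It lies beside SLC4A3 (chromosome 2, 220492116 to 220506702, plus strand, hg19), which encodes an anion exchanger that trades chloride for bicarbonate. Its log2 difference was 2.48 (SE 0.32, limma adjusted p = 0.213). A second lncRNA of the same locus, lnc-SLC4A3-2, was also separated, at 1.04 and 4.60 FPKM in the parent and 5.53 and 5.45 FPKM in the subline. Its parental libraries differed from each other more than the subline did from parental library 2.

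The lncRNA lnc-SLC11A2-5 had the same form, listed at 0 in both parental libraries, while its subline values were 1.52 and 1.45 FPKM. SLC11A2 (chromosome 12, 51373184 to 51422349, minus strand) encodes a transporter of ferrous iron and other divalent metals. The log2 difference was 1.99 (SE 0.36, limma adjusted p = 0.256). The other member of that locus, lnc-SLC11A2-1, had 3.35 and 0.545 FPKM in the parent and 3.39 and 1.90 FPKM in the subline, so its lines overlapped. With means of 1.14 and 0.744 FPKM, lnc-SLC4A3-5 and lnc-SLC11A2-5 reached the minimum through the subline alone, so their separation follows in part from the choice. The table keeps no counts, so an entry of 0 cannot be told from a failed estimate of a low level.

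The lncRNA lnc-SLC39A6-4 was the most abundant of the higher members. It had 9.74 and 22.7 FPKM in the parent and 88.6 and 58.3 FPKM in the subline. The means were 16.2 ± 9.18 and 73.5 ± 21.4 FPKM (SD, n = 2 libraries each), 4.53-fold higher in the subline. SLC39A6 (chromosome 18, 33688494 to 33709348, minus strand) encodes a zinc importer known in breast cancer as an oestrogen-regulated protein. The log2 difference was 2.23 (SE 0.51, limma adjusted p = 0.268). The neighbouring lnc-SLC39A6-1 went the other way in value, from 5.07 and 2.45 FPKM to 3.08 and 1.55 FPKM, with overlapping libraries.

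The largest positive difference was that of lnc-SLC35E3-8, a lncRNA beside SLC35E3 (chromosome 12, 69139905 to 69187744, plus strand), a member of the nucleotide sugar transporter family. It had 3.53 FPKM and near 0 in the parental libraries and 31.7 and 30.7 FPKM in the subline. The log2 difference was 4.48 (SE 1.05, limma adjusted p = 0.268). The parental libraries were far apart, and the subline libraries nearly equal.

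Of the other higher members, lnc-SLC10A5-1 had 0.974 and 0.634 FPKM in the parent and 3.34 and 2.28 FPKM in the subline, a 3.49-fold higher mean. Its neighbour SLC10A5 (chromosome 8, 82605866 to 82607293, minus strand) belongs to the bile acid transporter family. The log2 difference was 1.34 (SE 0.32, limma adjusted p = 0.268). The lncRNA lnc-SLC35G3-1 had 0.0695 and 0.0344 FPKM in the parent and 0.862 and 1.51 FPKM in the subline, and like the 2 lncRNAs listed at 0 it reached the minimum through the subline. SLC35G3 lies on chromosome 17 (33519539 to 33521412, minus strand). The difference was 1.59 (SE 0.43, limma adjusted p = 0.268).

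Among the lower members, lnc-SLC5A10-3 was the most abundant member of all. It had 2030 and 417 FPKM in the parent and 117 and 38.9 FPKM in the subline. The means were 1224 ± 1141 and 78.2 ± 55.6 FPKM (SD, n = 2 each), 15.6-fold apart. All 4 libraries were far apart, and the parental libraries differed from each other by a larger ratio than parental library 2 did from subline library 1. The log2 difference was -3.76 (SE 0.97, limma adjusted p = 0.268). SLC5A10 (chromosome 17, 18853658 to 18925908, plus strand) encodes a sodium-dependent sugar transporter of the kidney. The U3 small nucleolar RNA genes SNORD3B-1 (18965225 to 18965982) and SNORD3A (19091329 to 19092027) lie between SLC5A10 and EPN2 (19118928 to 19240028) in the same annotation. The abundant lncRNA lnc-EPN2-3, named after EPN2, stood in the same order over the libraries, at 119616 and 47228 FPKM in the parent and 31103 and 11798 FPKM in the subline. Neither lncRNA has coordinates in the annotation used here, so an overlap with the snoRNA genes was not tested.

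The lncRNA lnc-SLC6A12-2 combined a high level with close libraries, at 29.3 and 32.1 FPKM in the parent and 16.2 and 16.1 FPKM in the subline. SLC6A12 (chromosome 12, 299243 to 323736, minus strand) encodes a transporter of betaine and GABA. The parental mean of 30.7 ± 2.03 FPKM was 1.90-fold the subline mean of 16.2 ± 0.0731 FPKM (SD, n = 2 each; log2 difference -0.90, SE 0.25, limma adjusted p = 0.271). Near SLC6A4, the serotonin transporter gene (chromosome 17, 28521337 to 28563020, minus strand), lnc-SLC6A4-7 had 3.27 and 3.17 FPKM in the parent and 1.33 and 0.836 FPKM in the subline. The parental mean was 2.97-fold the subline mean (log2 difference -1.25, SE 0.29, limma adjusted p = 0.268).

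The other lower members of smallest p were scarcer or differed less. The lncRNA lnc-SLC25A25-5, beside a calcium-regulated mitochondrial carrier of ATP and phosphate (chromosome 9, 130830480 to 130871524, plus strand), had 1.12 and 0.960 FPKM in the parent. In both subline libraries it was listed at 0.136 FPKM, so it reached the minimum through the parent (difference -1.28, SE 0.37, limma adjusted p = 0.284). Beside SLC29A4, a monoamine transporter of the nucleoside transporter family (chromosome 7, 5314000 to 5346543, plus strand), lnc-SLC29A4-5 had 3.58 and 5.16 FPKM in the parent and 2.24 and 2.16 FPKM in the subline (difference -0.83, SE 0.29, limma adjusted p = 0.313). For lnc-SLC30A7-3, beside a gene for a zinc transporter of the Golgi (chromosome 1, 101361632 to 101447313, plus strand), the values were 8.82 and 10.3 FPKM against 5.37 and 6.05 FPKM (difference -0.70, SE 0.26, limma adjusted p = 0.329). The sister lncRNA lnc-SLC30A7-2 stood the other way, at 7.34 and 7.11 FPKM in the parent and 10.1 and 9.85 FPKM in the subline.

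Directions were compared over 14 other settings for the 12 lncRNAs described above as the 6 higher and 6 lower members of smallest p. Each kept its direction wherever it was tested. With a minimum of 1 FPKM, lnc-SLC11A2-5, lnc-SLC35G3-1 and lnc-SLC25A25-5 were not tested. Because the 12 were chosen as separated by line, only quantile normalization, centring and both kinds of rescaling could have reversed a direction. They also stayed separated by line after both kinds of rescaling.

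**Figure D2:**
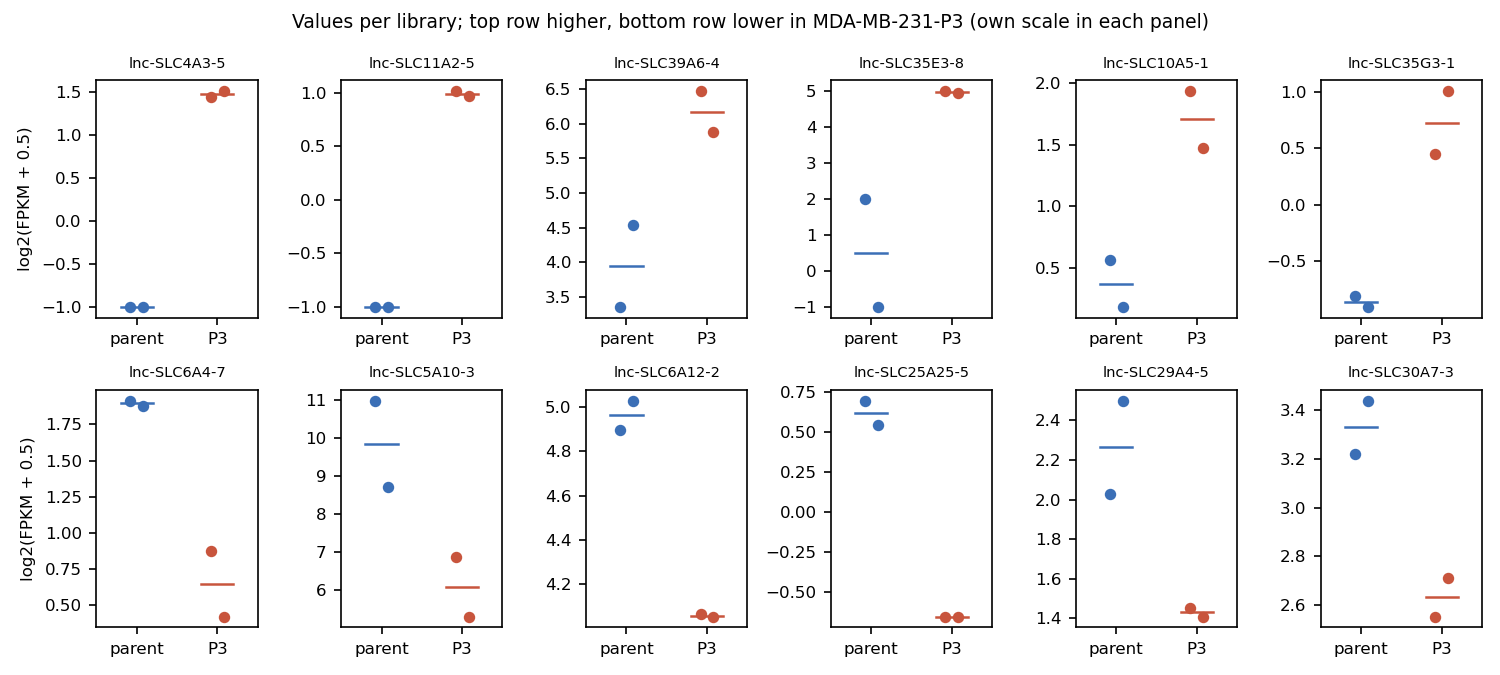
Values of the 6 higher and 6 lower members of smallest p in their direction among those with separated libraries, as log2(FPKM + 0.5), 1 point per library (left point replicate 1, right point replicate 2) and a bar at the mean of each line; the y axis differs between panels. The subline libraries of lnc-SLC6A12-2 (16.2 and 16.1 FPKM) nearly coincide, while the parental libraries of lnc-SLC35E3-8 and lnc-SLC5A10-3 lie far apart.

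Isoform rows gave a finer view of some of these sums. Of 8432 isoforms with a mean of at least 0.5 FPKM, 165 belonged to members, and limma called 0 of the 165 and 0 of the 8432 (0%). An unadjusted p under 0.05 was reached by 20 of the 165 (12.1%), against 13.3% of all isoforms tested. The isoform lnc-SLC35E3-8:1 held 99.96% and 99.98% of its gene's sum in the subline libraries, at 31.7 and 30.7 FPKM, and was near 0 in both parental libraries. The 3.53 FPKM of parental library 1 came from lnc-SLC35E3-8:3, which was near 0 in the other 3 libraries. The lines thus shared no isoform of this lncRNA above 0.01 FPKM. The subline level of lnc-SLC4A3-5 came from isoforms that traded places: isoform 2 held 59.1% of it in subline library 1, and isoform 1 held 89.8% in subline library 2.

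Of the 57 members with more than 1 isoform row, 23 had the same most abundant isoform in all 4 libraries. In 1 member, lnc-SLC38A2-1, the leading isoform differed between the lines and was the same within each, in subline library 2 by a narrow margin. SLC38A2 (chromosome 12, 46751971 to 46766556, minus strand) encodes a transporter of glutamine and other neutral amino acids. In the parent, isoform lnc-SLC38A2-1:14 had 0.898 and 1.12 FPKM, 43.1% and 51% of the gene's sum, and near 0 in both subline libraries. Isoform lnc-SLC38A2-1:15 led in the subline, with 45.9% and 38.5% of the sum, against 23.7% and 9.41% in the parent. The summed level stood at 2.08 and 2.19 FPKM in the parent and 1.75 and 1.35 FPKM in the subline, and overlapped after either rescaling. The difference of isoform 14 was -1.59 (SE 0.50, limma adjusted p = 0.345 over all isoforms).

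In 27 members the leading isoform differed between libraries of the same line. In 2, lnc-SLC35E3-8 and lnc-SLC4A3-5, a library near 0 gave none. The other 5 had a near tie, under 1 percentage point, in some library: lnc-SLC38A2-1 in subline library 2, where isoform 12 held 37.8%, and lnc-SLC10A5-1, lnc-SLC30A7-2, lnc-SLC39A6-1 and lnc-SLC39A11-10. The stable sum of lnc-SLC6A12-2, with 30 isoform rows, hid a change of leading isoform between the parental libraries. Isoform 21 held 90.0% of the sum in parental library 1 and 45.6% in parental library 2, where isoform 31 held 51.7%. Isoform 31 was at 0.0473 FPKM in parental library 1 and at 16.6 FPKM in parental library 2. How the authors divided reads among overlapping isoforms is not given in the sources used here.

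**Figure D3:**
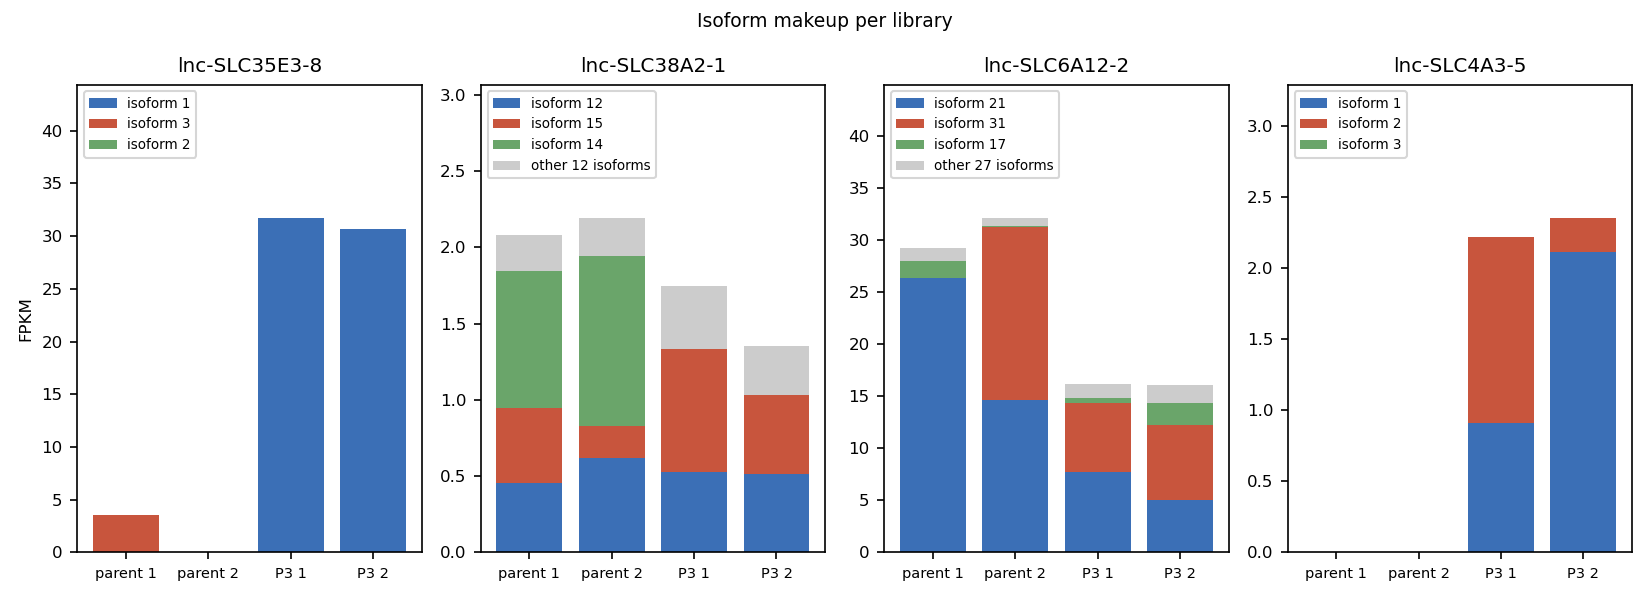
FPKM per library of lnc-SLC35E3-8, lnc-SLC38A2-1, lnc-SLC6A12-2 and lnc-SLC4A3-5, stacked by isoform (the 3 most abundant isoforms and the sum of the others; libraries are replicates 1 and 2 of each line). Isoform 14 of lnc-SLC38A2-1 (0.898 and 1.12 FPKM in the parent) is not visible in the subline, and the makeup of lnc-SLC6A12-2 differs between the parental libraries.

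The members were grouped by what the neighbouring carrier family transports. The family number set the class, so a single carrier can differ from it. The serotonin transporter SLC6A4 and the betaine and GABA transporter SLC6A12 were counted as amino acid carriers, and the urate transporter SLC2A9 as a sugar transporter. No class had a member called by limma. Beside carriers of the amino acid class lay 21 lncRNAs, of which 7 had a positive and 14 a negative difference (median -0.27). Of these 21, 7 were lower and 2 higher in both subline libraries, against 21.4% and 28.9% of all genes tested. Besides lnc-SLC6A12-2 and lnc-SLC6A4-7, the lower ones included lnc-SLC1A4-5, at 1.19 and 1.37 FPKM in the parent and 0.698 and 0.184 FPKM in the subline, beside a neutral amino acid exchanger. They also held lnc-SLC7A14-3 and lnc-SLC7A14-4, which like lnc-SLC1A4-5 reached the minimum through the parent. The class median was 0.03 after rescaling to the same total FPKM, where the median of all genes was 0.385.

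Beside the inorganic ion carriers, which exchange bicarbonate, sodium, calcium, chloride or phosphate, 13 of 16 differences were positive (all tested: 54.7%; median 0.35), 6 members were higher (all tested: 28.9%) and 2 lower (all tested: 21.4%) in both libraries. With quantile normalization 10 of the 16 were positive (median 0.25, all tested -0.03), and at the same total FPKM 14 (median 0.67, all tested 0.385). Besides lnc-SLC4A3-5, the class held lnc-SLC24A3-1, at 8.08 and 4.69 FPKM in the parent and 10.4 and 11.2 FPKM in the subline, beside a potassium-dependent sodium/calcium exchanger (difference 0.75, SE 0.35, limma adjusted p = 0.392). In this class lay also lnc-SLC20A2-1, beside a phosphate transporter, at 0.227 and 0.315 FPKM in the parent and 0.701 and 0.818 FPKM in the subline. It reached the minimum through the subline.

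The mitochondrial carriers of the SLC25 family had 20 lncRNAs, 9 positive and 11 negative (median -0.04), 6 of them higher (all tested: 28.9%) and 1 lower (all tested: 21.4%) in both libraries. At the same total FPKM 18 of the 20 were positive (median 0.31), against 4487 of 6389 genes tested (median 0.385). Without the 10 most abundant isoforms 15 were positive (median 0.17), against 4129 of 6391 genes tested (median 0.268). Both class medians were below those of all genes. The most abundant was lnc-SLC25A39-2, beside a carrier needed for glutathione import into mitochondria. It had 21.9 FPKM in parental library 1 and 21.3 FPKM in subline library 1, but 3.02 and 2.06 FPKM in libraries 2 of the same lines. Its level followed the replicate number and not the line. What the libraries of 1 number share is not given in the labels. In the opposite sense, lnc-SLC38A5-1, singled out after its values were seen, had 0.0355 and 0.0897 FPKM in libraries 1 and 1.76 and 1.16 FPKM in libraries 2 of the parent and the subline.

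The zinc and other metal carriers had 14 lncRNAs, 6 positive and 8 negative (median -0.20), 3 higher (all tested: 28.9%) and 4 lower (all tested: 21.4%) in both libraries. The class of nucleotide sugar transporters took in every SLC35 neighbour, whatever its own substrate. It had 10 lncRNAs, 7 positive and 3 negative (median 0.28), 4 higher (all tested: 28.9%) and 0 lower (all tested: 21.4%). The most abundant of this class was lnc-SLC35E1-1, at 20.5 and 26.1 FPKM in the parent and 17.3 and 23.3 FPKM in the subline, which overlapped. The sugar transporters had 9, 5 positive and 4 negative, and the widest range of the classes in the plot, from -3.76 for lnc-SLC5A10-3 to 2.23 for lnc-SLC45A3-4.

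Vitamin, nucleoside and choline carriers had 9, 4 positive and 5 negative (median -0.33), 3 higher (all tested: 28.9%) and 3 lower (all tested: 21.4%) in both libraries. The most abundant was lnc-SLC44A3-1, beside a choline transporter-like gene, at 8.91 and 6.67 FPKM in the parent and 4.97 and 5.19 FPKM in the subline (difference -0.56, SE 0.28, limma adjusted p = 0.417), and its libraries overlapped after either rescaling. Carriers of organic ions, peptides and bile acids had 8, 5 positive and 3 negative, led by lnc-SLC10A5-3 at 3.79 to 5.42 FPKM in all libraries. Carriers of monocarboxylates such as lactate had 8, 4 positive and 4 negative, 2 higher (all tested: 28.9%) and 2 lower (all tested: 21.4%). Among the 9 classes drawn in the plot, the median kept its sign in all 5 scalings, the deposited one included, for inorganic ions, nucleotide sugars, sugars, organic ions, and vitamins. For amino acids, mitochondrial carriers, metals and carboxylates it was negative as deposited and positive after rescaling to the same total. The median of all genes was then 0.385.

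**Figure D4:**
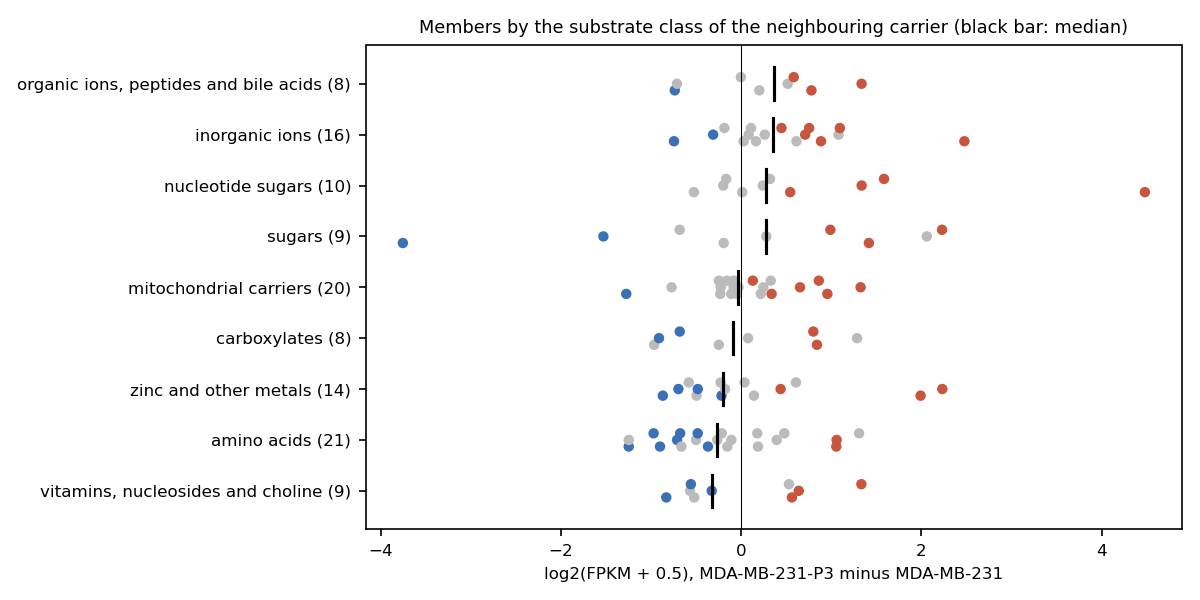
Log2 difference (log2(FPKM + 0.5), MDA-MB-231-P3 minus MDA-MB-231) of each member by the substrate class of its neighbouring carrier, with the number of members in brackets and a black bar at the median; red and blue mark members separated by line, grey those that overlap. Medians run from -0.33 for vitamins, nucleosides and choline to 0.36 for organic ions, peptides and bile acids, and points of each class drawn lie on both sides of 0.

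Of the 90 neighbour names, 25 had 2 or more members. Their differences were all positive for 11, all negative for 4 and mixed for 10 (13, 3 and 9 after rescaling without the 10 most abundant isoforms). All members were separated in 1 direction at 5 of these loci: SLC4A3, SLC16A7, SLC25A32 and SLC45A3 were higher and SLC7A14 lower. Among all 937 loci with 2 or more tested lncRNAs, 9.93% had all of them higher and 4.48% all of them lower, against 4 (16%) and 1 (4%) of these 25. These loci were picked out after their values were seen, and lnc-SLC4A3-5 and lnc-SLC45A3-3 reached the minimum through the subline alone. Both lncRNAs of SLC7A14, the lower locus, reached it through the parent alone. At SLC45A3, a sugar transporter gene known from the prostate, lnc-SLC45A3-4 had 0.871 and 3.36 FPKM in the parent and 7.50 and 14.0 FPKM in the subline. Its partner lnc-SLC45A3-3 had near 0 and 0.203 FPKM in the parent against 0.922 and 1.26 FPKM in the subline.

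At the 5 loci with 3 or more members, 2 of the 18 lncRNAs were separated by line, where 50.3% of all genes tested were. Beside SLC16A11, a monocarboxylate transporter gene (chromosome 17, 6944940 to 6947411, minus strand), 4 lncRNAs were members. The largest, lnc-SLC16A11-7, had 12.4 and 7.78 FPKM in the parent and 4.15 and 5.99 FPKM in the subline and was the 1 of the 4 that was separated, though it overlapped after rescaling to the same total FPKM. The values of lnc-SLC16A11-2 were 7.55 and 5.30 FPKM in the parent and 1.09 and 7.18 FPKM in the subline, so a single subline library stood apart. For lnc-SLC16A11-6 the level rested on 1 library: it was 2.47 FPKM in subline library 2 and near 0 in the other 3. The last, lnc-SLC16A11-1, lay between 0.320 and 0.947 FPKM.

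At SLC3A2, which encodes the heavy chain that amino acid exchangers need to reach the cell surface (chromosome 11, 62623476 to 62656352, plus strand), subline library 2 stood apart for some lncRNAs as well. The lncRNA lnc-SLC3A2-3 was listed at 2.57 FPKM in subline library 2 and at 0 in the other 3. Subline library 2 was also the highest for lnc-SLC3A2-7, at 5.97 FPKM against 1.90 FPKM in subline library 1 and 3.13 and 2.80 FPKM in the parent. The third, lnc-SLC3A2-1, had 1.00 and 0.461 FPKM in the parent and 0.925 and 0.798 FPKM in the subline.

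SLC2A9, a urate transporter of the glucose transporter family (chromosome 4, 9772777 to 10056560, minus strand), had the second most abundant member. The values of lnc-SLC2A9-3 were 136 and 425 FPKM in the parent and 165 and 267 FPKM in the subline. The parental libraries enclosed both subline libraries, and the sign of its difference of -0.19 changed in 5 of the other settings. The lncRNA lnc-SLC2A9-2 had 5.51 FPKM in parental library 1, near 0 in parental library 2, and 9.71 and 4.62 FPKM in the subline. The third, lnc-SLC2A9-6, was separated, at 4.37 and 1.29 FPKM in the parent and 5.99 and 4.79 FPKM in the subline.

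The lncRNAs beside SLC25A51 and SLC35F5 had the smallest differences of these loci. SLC25A51 (chromosome 9, 37879397 to 37904350, minus strand) encodes the mitochondrial NAD+ importer. Its 4 lncRNAs had differences of -0.23 to 0.25 and none was separated. The most abundant of them, lnc-SLC25A51-7, lay between 3.31 and 5.79 FPKM. SLC35F5 (chromosome 2, 114462588 to 114514270, minus strand) also had 4, with differences of -0.53 to 0.24 and none separated. Of these, lnc-SLC35F5-14 had 6.88 and 10.6 FPKM in the parent and 7.37 and 10.1 FPKM in the subline, a difference of 0.01 (SE 0.34).

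**Figure D5:**
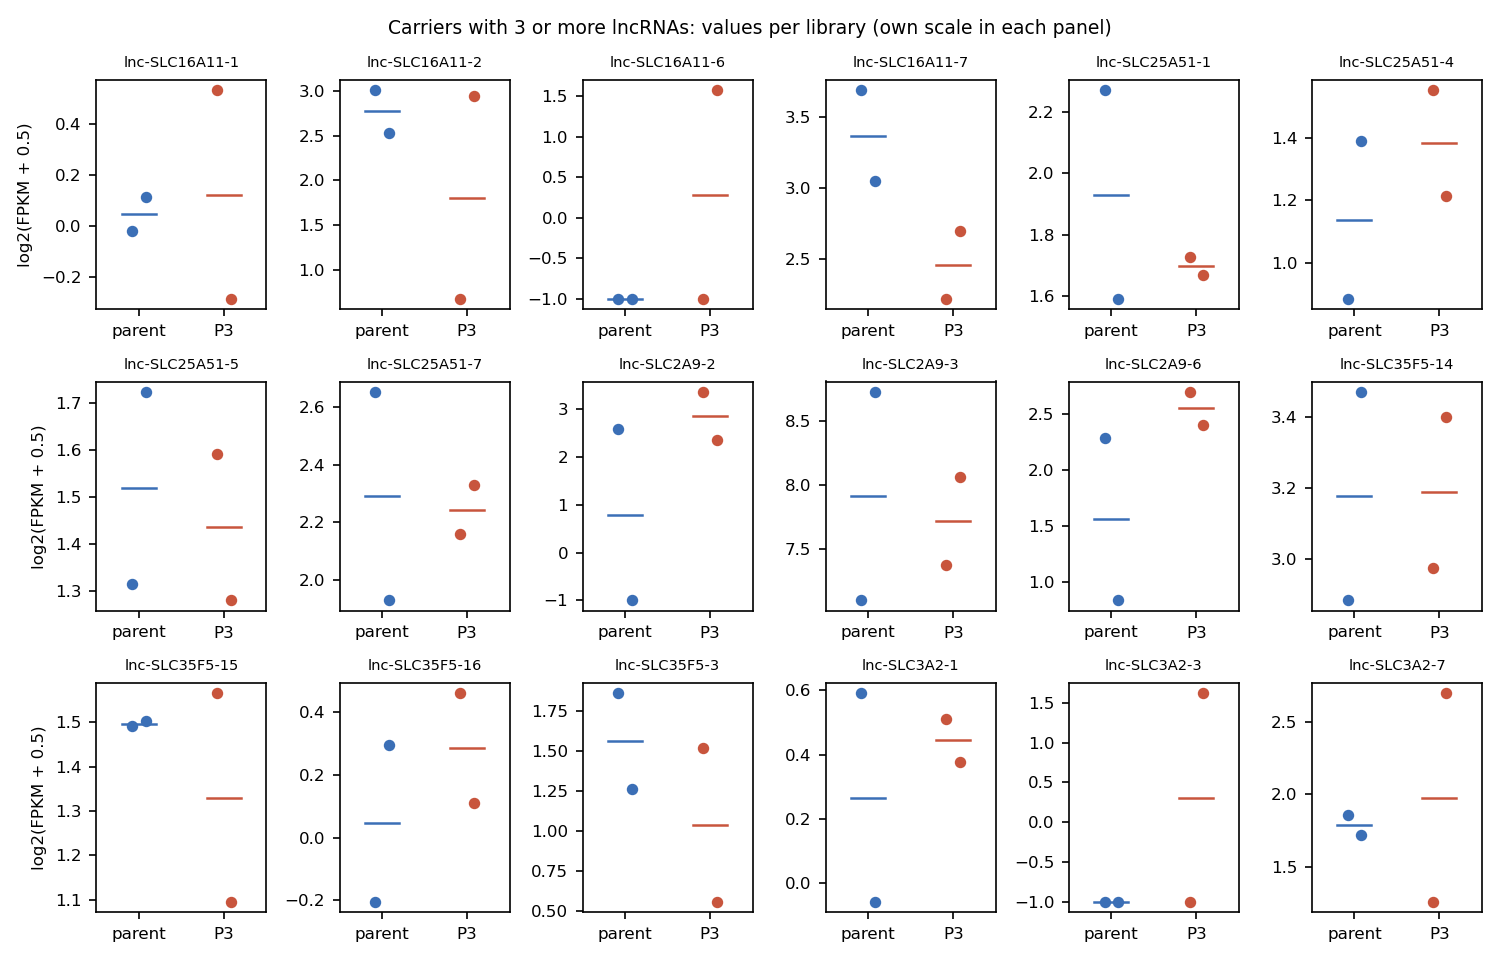
Values of the 18 members at the 5 carrier loci with 3 or more members, as log2(FPKM + 0.5), 1 point per library (left replicate 1, right replicate 2) and a bar at the mean; the y axis differs between panels. Libraries are separated by line for lnc-SLC16A11-7 and lnc-SLC2A9-6, and subline library 2 alone carries lnc-SLC16A11-6 (2.47 FPKM) and lnc-SLC3A2-3 (2.57 FPKM).

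At least 1 library was near 0 for 14 of the 123 members (11.4%), against 13.4% of all genes tested. Of the 66 members with 1 isoform row it was 12 (18.2%, against 22.1% of all tested with 1 row), and of the 57 with more rows 2 (3.51%, against 3.53%). Both parental libraries were near 0 for 4 members (3.25%, against 2.72%), lnc-SLC4A3-5, lnc-SLC11A2-5, lnc-SLC16A11-6 and lnc-SLC3A2-3, and both subline libraries for 0 (against 1.15%). All 4 reached the minimum through the subline, lnc-SLC16A11-6 and lnc-SLC3A2-3 through subline library 2 alone. In parental libraries 1 and 2 there were 7 and 8 members near 0, in those of the subline 4 and 2. Over all genes tested the share near 0 was 5.90% and 7.90% in the parent and 3.26% and 4.33% in the subline. The members with 1 isoform row had a median difference of 0.23 (all tested with 1 row: 0.20), and those with more rows -0.22 (all tested with more rows: -0.02).

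Carriers often linked to tumour metabolism were looked up as a separate list. Of 40 lncRNAs listed beside these 14 carriers, 6 reached the minimum: lnc-SLC39A6-4, lnc-SLC39A6-1, lnc-SLC38A2-1 and the 3 of SLC3A2. Of the 6, 4 were positive (all tested: 54.7%) and 2 negative. In both libraries 1 was higher (all tested: 28.9%) and 1 lower (all tested: 21.4%), and none was called (all tested: 0.0621%). Beside other transport genes, 10 lncRNAs of ABC transporters had a median of -0.17 (4 positive, 6 negative), with 2 higher and 5 lower in both libraries, against 28.9% and 21.4% of all genes tested. The 12 of ion pumps had a median of -0.13 (4 positive, 8 negative; 2 higher and 5 lower). Both medians turned positive after rescaling to the same total (0.13 and 0.14), where the median of all genes was 0.385. The 2 tested lncRNAs beside organic anion carriers of the SLCO family went 1 each way.

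LncRNAs that bear a carrier's own symbol with the ending AS, IT, OT or DT (antisense, intronic, overlapping or divergent transcripts) numbered 19, of which 6 reached the minimum, all with the ending AS, and 0 were called. The libraries kept the strand, but whether the counting used it is not given in the sources used here, so reads of the carrier gene and its antisense RNA may not be told apart. Of the 6, 5 had a negative difference (median -0.30), 3 were lower (all tested: 21.4%) and 0 higher (all tested: 28.9%) in both subline libraries. After rescaling to the same total FPKM 7 reached the minimum, with 4 positive and a median of 0.01 (all tested: 0.385). Without the 10 most abundant isoforms 3 of 7 were positive (median -0.09, all tested: 0.268). SLC25A34-AS1, opposite a mitochondrial carrier gene, had 2.94 and 1.63 FPKM in the parent and 0.448 and 1.06 FPKM in the subline (difference -1.15, SE 0.42, limma adjusted p = 0.327). SLC25A25-AS1 had 4.59 and 5.03 FPKM in the parent and 2.15 and 3.19 FPKM in the subline (difference -0.76, SE 0.30, limma adjusted p = 0.337), the same order as its neighbour lnc-SLC25A25-5. SLC9A3-AS1, opposite the gene of a sodium/proton exchanger, had 3.37 and 3.25 FPKM in the parent and 2.30 and 2.21 FPKM in the subline (difference -0.47, SE 0.25, limma adjusted p = 0.443). These 3 differences stayed negative in all settings, of which only quantile normalization, centring and the rescalings could have reversed separated libraries. After rescaling to the same total FPKM the libraries of SLC9A3-AS1 overlapped (difference -0.12).

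The promoter windows of these 3 antisense lncRNAs are shown because they were measured, stood in the same direction and have an entry in RefSeq. Each window of 300 bases spans the start of the transcript, most of it upstream, and is printed 5′ to 3′ on its own strand, in build GRCh38.p14. They are SLC25A25-AS1 at chr9:128118685-128118984 (minus strand), SLC25A34-AS1 at chr1:15749841-15750140 (minus strand) and SLC9A3-AS1 at chr5:472986-473285 (plus strand). Capitals mark matches to GGGCGG or CCGCCC (the GC box), CCAAT or ATTGG, and TATAAA or TTTATA, searched on both strands.
SLC25A25-AS1: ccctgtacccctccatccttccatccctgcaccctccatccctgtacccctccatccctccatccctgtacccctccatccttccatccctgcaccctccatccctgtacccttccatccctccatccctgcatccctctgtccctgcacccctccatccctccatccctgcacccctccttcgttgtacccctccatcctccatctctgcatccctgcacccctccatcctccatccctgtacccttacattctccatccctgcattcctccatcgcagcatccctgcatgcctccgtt
SLC25A34-AS1: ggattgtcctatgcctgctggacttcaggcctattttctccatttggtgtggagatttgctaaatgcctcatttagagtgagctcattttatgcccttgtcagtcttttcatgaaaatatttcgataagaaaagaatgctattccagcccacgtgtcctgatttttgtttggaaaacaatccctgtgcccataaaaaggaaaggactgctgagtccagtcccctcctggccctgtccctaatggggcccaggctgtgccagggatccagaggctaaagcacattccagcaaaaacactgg
SLC9A3-AS1: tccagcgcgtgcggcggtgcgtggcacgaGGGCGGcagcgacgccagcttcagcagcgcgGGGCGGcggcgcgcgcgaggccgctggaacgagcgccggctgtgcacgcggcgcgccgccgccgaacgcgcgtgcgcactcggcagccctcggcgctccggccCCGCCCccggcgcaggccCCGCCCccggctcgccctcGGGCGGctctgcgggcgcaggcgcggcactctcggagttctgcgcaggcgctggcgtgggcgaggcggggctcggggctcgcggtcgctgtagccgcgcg

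The windows had little in common. The window of SLC9A3-AS1 held 5 GC box matches, 61 CG dinucleotides and 82.3% G and C. Those of SLC25A34-AS1 and SLC25A25-AS1 held 0 matches to any of the motifs, with 46.7% and 60.7% G and C, against a median of 58.7% over all 35116 windows. A GC box match is present in 45% of all windows, a CCAAT box in 34.6% and TATAAA in 11.5%. The SLC25A25-AS1 window is built of short repeats: the unit CCATCC occurs 16 times on the strand shown, a number no other of the 35116 windows reached, and 0 times in the other 2 windows. The unit was taken from this window, so its high rank there follows in part from that choice. A match, or its absence, describes these letters only.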

How the data were processed

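Strand-specific paired-end libraries of the mRNA fraction were sequenced, 2 of MDA-MB-231 and 2 of MDA-MB-231-P3 (groups from the labels' cell line field). Per the labels' protocols, the authors aligned reads to hg19 with HISAT2 and gave the values as FPKM; the submitters' processing notes also name StringTie. Not given in the sources used here: versions and the lncRNA annotation. The deposited FPKM values per isoform were equal in the per-sample and series tables.

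Isoforms were summed per gene. The 6444 genes with a mean of at least 0.5 FPKM were fitted with limma 3.58.1 (R 4.3.3) on log2(FPKM + 0.5) (eBayes with trend, two-sided, no block), adjusted by Benjamini-Hochberg over all of them, threshold 0.05. The fit was tested on simulated data. Other settings are listed in the closing section. Members and lists were chosen with earlier results of these data known. LncRNAs given in full were, by rule: the 6 separated members of smallest p per direction, the 6 most abundant, the most abundant of each class, loci with 3 or more members, those nearest the minimum, and members whose leading isoform differs between the lines. The 2 members whose neighbour is not a carrier were left out of the classes. Other lncRNAs with values were picked after these were seen. Promoter sequences are from RefSeq (GRCh38.p14), where 0 members have an entry. Plots: Python 3.11.15, matplotlib 3.10.9.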

Additional observations from a re-analysis of the deposited data

How the results depend on the processing

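No member was called by limma under any of the 14 other settings or with isoforms as rows. Requiring in addition a log2 change of at least 1 could only have removed calls. The smallest adjusted p of a member ran from 0.0949 (lnc-SLC11A2-5, without MDA-MB-231-P3 replicate 2) to 0.32. The 4 calls among all genes tested became 0 with a pseudocount of 1, with no filter on low values, without the eBayes trend, and with the replicate numbers as a block. They became 2 with quantile normalization, and 0 when any 1 library was left out. Over all genes tested, the differences between the replicates of a line were barely correlated between the lines (r = 0.0777 across 6444 genes, which are not independent). Single lncRNAs such as lnc-SLC25A39-2 still followed the replicate number. With the replicate block the members' median stayed at 0.0266. An unadjusted limma p under 0.05 was then reached by 18 of 123 members, against 887 of all 6444 genes tested.

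The members' median difference was -0.0746 with quantile normalization, -0.059 with centring on the median log ratio, 0.331 at the same total FPKM and 0.225 without the 10 most abundant isoforms. It ran from -0.00401 (without MDA-MB-231-P3 replicate 2) to 0.111 (without MDA-MB-231-P3 replicate 1). With a minimum of 1 FPKM, 35 of 82 members did not overlap (42.7%, against 51.7% of 4191 genes tested), 22 of them higher (26.8%, against 28.7%) and 13 lower (15.9%, against 23%), in place of 57 of 123.

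Of the 38 members named by rule, 20 kept their sign in all settings in which they were tested. All of these 20 except lnc-SLC2A9-2 and lnc-SLC35F5-3 were separated by line, and some had been chosen for that. With separated libraries, only quantile normalization, centring and both kinds of rescaling could have reversed the sign. For such members the other settings could not test the direction. Members with a mean under 1 FPKM were not tested with a minimum of 1 FPKM. For lnc-SLC16A11-6 and lnc-SLC3A2-3 the difference was 0 without MDA-MB-231-P3 replicate 2. The other 16 had 38 reversed values; the cause was not tested. Quantile normalization gave lnc-SLC2A9-3 0.22, lnc-SLC16A11-1 -0.114, lnc-SLC35F5-14 -0.072 and lnc-SLC25A6-4 -0.0503. Centring gave lnc-SLC16A11-1 -0.00991 and lnc-SLC35F5-14 -0.0744. The same total FPKM gave lnc-SLC2A9-3 0.212, lnc-SLC35E1-1 0.198, lnc-SLC25A39-2 0.12, lnc-SLC35F5-15 0.165, lnc-SLC25A51-1 0.114, lnc-SLC25A51-5 0.253 and lnc-SLC25A51-7 0.316. Without the 10 most abundant isoforms it gave lnc-SLC2A9-3 0.0498, lnc-SLC35E1-1 0.0391, lnc-SLC25A51-5 0.121, lnc-SLC25A51-7 0.166 and lnc-SLC35F5-15 0.0325.

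Leaving out 1 library gave ranges of -0.0324 to 0.434 for lnc-SLC10A5-3, -0.334 to 0.485 for lnc-SLC16A11-1, -2.10 to 0.168 for lnc-SLC16A11-2 and -1.80 to 1.30 for lnc-SLC25A39-2. They were -0.573 to 0.108, -0.00596 to 0.496, -0.288 to 0.121 and -0.409 to 0.315 for lnc-SLC25A51-1, lnc-SLC25A51-4, lnc-SLC25A51-5 and lnc-SLC25A51-7. For lnc-SLC2A9-3 the range was -1.01 to 0.624, and for lnc-SLC35E1-1 -0.41 to 0.00963. For lnc-SLC35F5-14, lnc-SLC35F5-15 and lnc-SLC35F5-16 it was -0.282 to 0.305, -0.402 to 0.0678 and -0.0114 to 0.489. For lnc-SLC3A2-1 and lnc-SLC3A2-7 it was -0.145 to 0.502 and -0.53 to 0.902. With 1 library left in a line, its spread is assumed to be that of the other line. FPKM keep no depth, so which low values could be told from 0 is unknown.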
